A study of Homo sapiens with 6 samples.

Results

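The genes described here encode the machinery that phosphorylates, forms and dephosphorylates eukaryotic translation initiation factor 2 (eIF2). They were taken from the deposited expression table by gene name, a rule that holds no measured value, although earlier results of these data were known when the genes were listed: the 4 eIF2α kinases EIF2AK1, EIF2AK2, EIF2AK3 and EIF2AK4, the eIF2 subunits EIF2S1, EIF2S2 and EIF2S3, and the phosphatase regulatory subunits PPP1R15A and PPP1R15B. Each of the 9 names matched 1 of the 58735 genes in the table. RNA with poly(A) tails came from A375, a cultured human melanoma line that carries mutant BRAF, exposed for 6 h to CuB (cucurbitacin B in the series title, a plant triterpenoid) or to its solvent DMSO, with 3 libraries in each of the 2 groups. The protocol gives the CuB dose as 0.2 µM and the library names as 100 nM, so the dose is not settled. All results come from this single cell line and 1 time point, and the labels do not state whether replicates were separate cultures, so that every p-value here reflects scatter between libraries that could be technical in origin.

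eIF2 delivers the initiator methionyl-tRNA to the small ribosomal subunit. Phosphorylation of its α subunit by any of the kinases turns eIF2 into an inhibitor of its own exchange factor, eIF2B, which lowers overall protein synthesis while a few mRNAs with upstream open reading frames, ATF4 among them, are translated more. The regulatory subunits PPP1R15A (GADD34) and PPP1R15B (CReP) bring protein phosphatase 1 to eIF2α and reverse the phosphorylation. PPP1R15A is the inducible form and PPP1R15B the form present in unstressed cells. This circuit is the common node of the integrated stress response, and the series title places it in the response to CuB. The data are mRNA levels and carry no information on phosphorylation of the eIF2α protein. In bulk RNA, a change in the number of cells that express a gene and a change in RNA per cell cannot be told apart.

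Libraries held between 14845976 and 16137093 fragments assigned to genes, recovered from the deposited FPKM (fragment counts divided by the length of the gene and by a library size). The library size implied by the FPKM was 1.03 to 1.04 times the recovered fragments in the DMSO libraries. In the CuB libraries it was 0.914 to 0.927 times. Relative to equal fragment totals, the deposited scale thus raises CuB values against DMSO values. Of 13273 tested genes, those with a mean of at least 1 FPKM, 5118 (38.6%) differed at a limma adjusted p under 0.05, 3046 higher (22.9%) and 2072 lower (15.6%) with CuB. In 51.5% of tested genes the CuB and DMSO values did not overlap. Of the calls 59.5% were higher as deposited, but 46.7% after rescaling to equal FPKM sums, 47.2% after quantile normalization, 39.3% with equal fragment totals and 69.7% among genes of at least 5 FPKM. Relative to the deposited scale, the median over all tested genes moved by -0.139 (log2) with equal fragment totals and by -0.0845 with quantile normalization, so fold changes of that size depend on the scaling. Within the groups the libraries differed along transcript GC content. The correlation across genes between a library's deviation from its group mean and GC content was 0.71 for DMSO replicate 2 and -0.38 and -0.57 for the other DMSO libraries, and -0.53, 0.13 and 0.51 for CuB replicates 1, 2 and 3. Of the melanocyte lineage markers, SOX10 was between 162.4 and 255.5 FPKM in all libraries, MITF between 3.42 and 5.17 FPKM and MLANA at 1.29 FPKM or less, whereas the pigment genes PMEL, TYR and DCT were below 1 FPKM in every library. S100B, the last of these 7 markers, was between 24.6 and 27.6 FPKM with DMSO and between 6.51 and 6.82 FPKM with CuB. The 7 markers of blood, epithelial, endothelial and fibroblast cells summed to at most 1.07 FPKM in any library.

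All 9 genes passed the filter on low values, and 6 of them differed between CuB and DMSO at a limma adjusted p under 0.05, against 38.6% of all tested genes. Both phosphatase regulators and the subunit gene EIF2S2 rose, while the kinase genes EIF2AK1, EIF2AK2 and EIF2AK4 fell. EIF2S1, EIF2S3 and EIF2AK3 had higher means with CuB and did not pass. On the deposited scale the CuB values of all 9 genes lay entirely on one side of the DMSO values, against 51.5% of tested genes. For EIF2AK3, EIF2S1 and EIF2S3 this depended on the scaling. As shares of the library's recovered fragments, these genes were lower in CuB replicate 3 than in DMSO replicate 3. The 9 genes had a median log2 fold change of 0.26, against 0.05 for all tested genes. Fold changes on the log2 scale are differences of log2(FPKM + 1), which understates changes of low genes, and means are given ± SD with n = 3 per group.

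**Figure D1:**
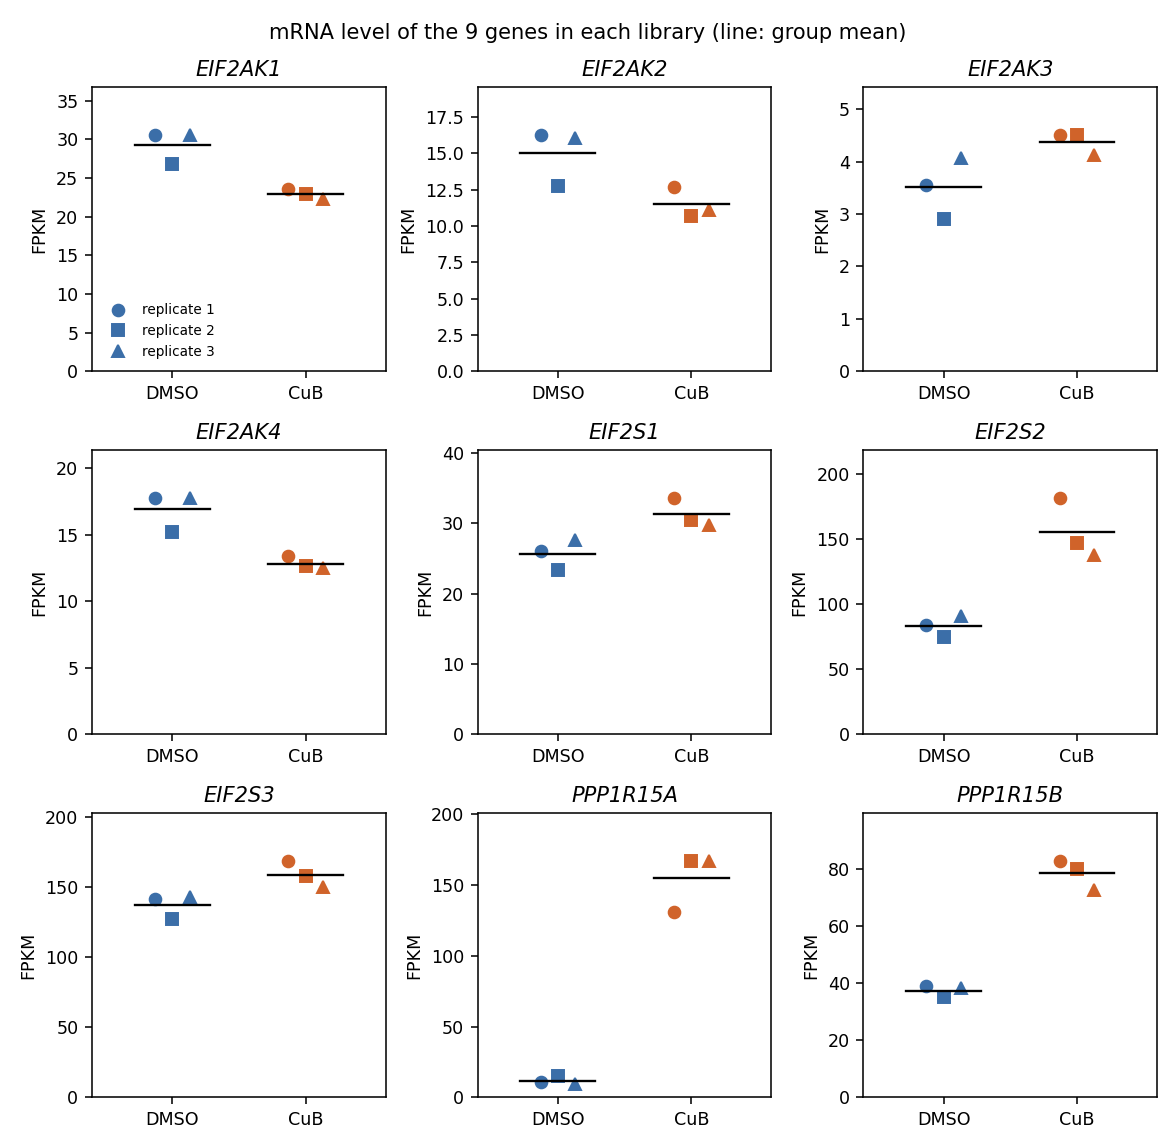
Level in FPKM as deposited (vertical axes, from 0) of each gene in each library. Symbols mark replicates 1, 2 and 3, blue for DMSO and orange for CuB, and lines mark group means; PPP1R15A runs from 9.15 to 14.9 FPKM in the DMSO libraries and from 131.0 to 167.1 FPKM in the CuB libraries, and in no panel do the groups overlap.

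The phosphatase regulators showed the largest differences among the 9 genes. The sequences upstream of their starts are shown because these genes, paralogs with a shared function, rose together. RefSeq promoter entries (GRCh38.p14) matched 7 of the 9 genes. Both printed stretches are the 250 bases before the RefSeq start, 5′ to 3′ on the strand of the gene. PPP1R15A lies on the plus strand with its stretch at chr19:48872171-48872420, and PPP1R15B on the minus strand at chr1:204411818-204412067. Capitals mark matches, searched on both strands, to TGACGTCA, the full cyclic AMP response element bound by ATF and CREB factors, and to TGATGNAA, the core of the element bound by C/EBP and ATF4 dimers. The motifs were picked after the sequences had been seen.
PPP1R15A: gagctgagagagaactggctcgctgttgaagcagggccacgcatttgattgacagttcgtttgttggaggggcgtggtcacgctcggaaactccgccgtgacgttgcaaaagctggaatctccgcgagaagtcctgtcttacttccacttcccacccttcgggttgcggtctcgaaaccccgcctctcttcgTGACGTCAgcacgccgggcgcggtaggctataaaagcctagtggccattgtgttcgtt
PPP1R15B: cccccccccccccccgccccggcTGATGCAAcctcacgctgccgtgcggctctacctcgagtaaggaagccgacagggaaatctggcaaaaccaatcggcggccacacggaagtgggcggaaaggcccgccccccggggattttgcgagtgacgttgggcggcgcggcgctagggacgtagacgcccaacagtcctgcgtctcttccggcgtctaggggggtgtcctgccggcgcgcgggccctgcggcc

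PPP1R15A held TGACGTCA from -58 to -51, counted from -1 at the base before the start, and PPP1R15B held TGATGCAA from -227 to -220. Of 35116 RefSeq windows of this length 1.65% held TGACGTCA and 3.14% held TGATGNAA. Neither motif was matched in the windows of the other 5 genes with an entry, EIF2AK2, EIF2AK3, EIF2AK4, EIF2S1 and EIF2S3. The windows end at the RefSeq start, which can lie inside the annotated gene. The EIF2S1 window, chr14:67360078-67360327, lies wholly inside its gene, which begins at 67359997. The EIF2S3 window, chrX:24054706-24054955, lies almost wholly inside its gene, which begins at 24054716. Those of EIF2AK2, EIF2AK3 and PPP1R15A reach partly into their genes. The missing matches thus say little about the sequence upstream of EIF2S1 and EIF2S3. The matches found describe the letters in the windows and are not evidence of binding.

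PPP1R15A (ENSG00000087074, chromosome 19 from 48872392 to 48876057 on GRCh38) encodes GADD34, the stress-induced subunit that directs protein phosphatase 1 to eIF2α. Its level was 10.6, 14.9 and 9.15 FPKM in DMSO replicates 1, 2 and 3 and 131.0, 167.1 and 166.9 FPKM in the CuB libraries. Every CuB library thus lay far above every DMSO library, with DMSO replicate 2 the highest of its group and CuB replicate 1 the lowest of its own. On average it rose 13.4-fold, from 11.6 ± 3.02 FPKM to 155.0 ± 20.8 FPKM (log2 fold change 3.65, SE 0.182, limma adjusted p = 2.2e-05). These values rest on 442 to 757 fragments per DMSO library and 5743 to 7717 per CuB library.

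PPP1R15B (ENSG00000158615, chromosome 1 from 204403387 to 204411791) encodes CReP, the constitutive counterpart of GADD34. It was at 38.9, 35.1 and 38.2 FPKM in the DMSO libraries and 83.0, 80.1 and 72.9 FPKM in the CuB libraries. Here too the groups were well apart, and the libraries of each group lay close together. On average it rose 2.1-fold, from 37.4 ± 2.01 FPKM to 78.7 ± 5.21 FPKM (log2 fold change 1.05, SE 0.0827, limma adjusted p = 0.000158).

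The order of the regulators turned over between the groups. Per length, PPP1R15B was the more abundant mRNA in each DMSO library and PPP1R15A in each CuB library. The FPKM ratio of PPP1R15A to PPP1R15B was 0.272, 0.425 and 0.24 with DMSO and 1.58, 2.09 and 2.29 with CuB. The log2 ratio moved by 2.70 (exact two-sided permutation p = 0.1, adjusted p = 0.1 over 4 ratios; 0.1 is the smallest p that 3 against 3 libraries can give). PPP1R15A made up 23.5 ± 5.56% of the summed FPKM of the pair with DMSO and 66.1 ± 4.37% with CuB. The summed FPKM of the pair went from 49.0 ± 1.47 to 233.7 ± 17.4, given without a test.

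Likeness between genes was measured as the root mean square difference of log2(FPKM + 1) over the 6 libraries after centring each gene on its DMSO mean. The tested genes nearest to PPP1R15A were SESN2 (0.11), NR4A1 (0.14), KLF2 (0.18), FOSB (0.18) and MMP9 (0.20). On average KLF2 went from 1.71 to 29.7 FPKM, FOSB from 1.57 to 32.8 FPKM and MMP9 from 0.271 to 15.8 FPKM. The closeness of these low genes rests in part on the added 1 FPKM, since their FPKM rose by a larger factor than that of PPP1R15A. SESN2, which encodes a stress-induced inhibitor of mTORC1, was at 5.62, 6.77 and 5.23 FPKM in the DMSO libraries and 75.5, 87.7 and 86.3 FPKM in the CuB libraries. Like PPP1R15A it was highest in replicate 2 among the DMSO libraries and lowest in replicate 1 among the CuB libraries. NR4A1 and FOSB had this order too, and KLF2 and MMP9 did not. Since the genes were picked for closeness over these same libraries, the order is no separate likeness. The list follows from the levels alone and describes these 6 libraries.

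The catalytic subunits of protein phosphatase 1, with which both regulators act, did not pass the test. PPP1CA was at 44.7 ± 9.14 FPKM in DMSO libraries and 51.5 ± 5.06 FPKM in CuB libraries, PPP1CB at 32.4 ± 4.68 and 33.99 ± 3.46 FPKM, and PPP1CC at 44.8 ± 5.49 and 50.7 ± 5.25 FPKM. In each of these 3 genes the groups overlapped. PPP1CA passed when DMSO replicate 2 was left out (log2 fold change 0.37 in place of 0.21, limma adjusted p = 0.0217). After a correction for GC content all 3 passed as higher, by 0.11 to 0.19 on the log2 scale (PPP1CC alone when the replicate number was also a block), and under quantile normalization their log2 fold changes were negative, from -0.14 to -0.02, without passing.

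**Figure D2:**
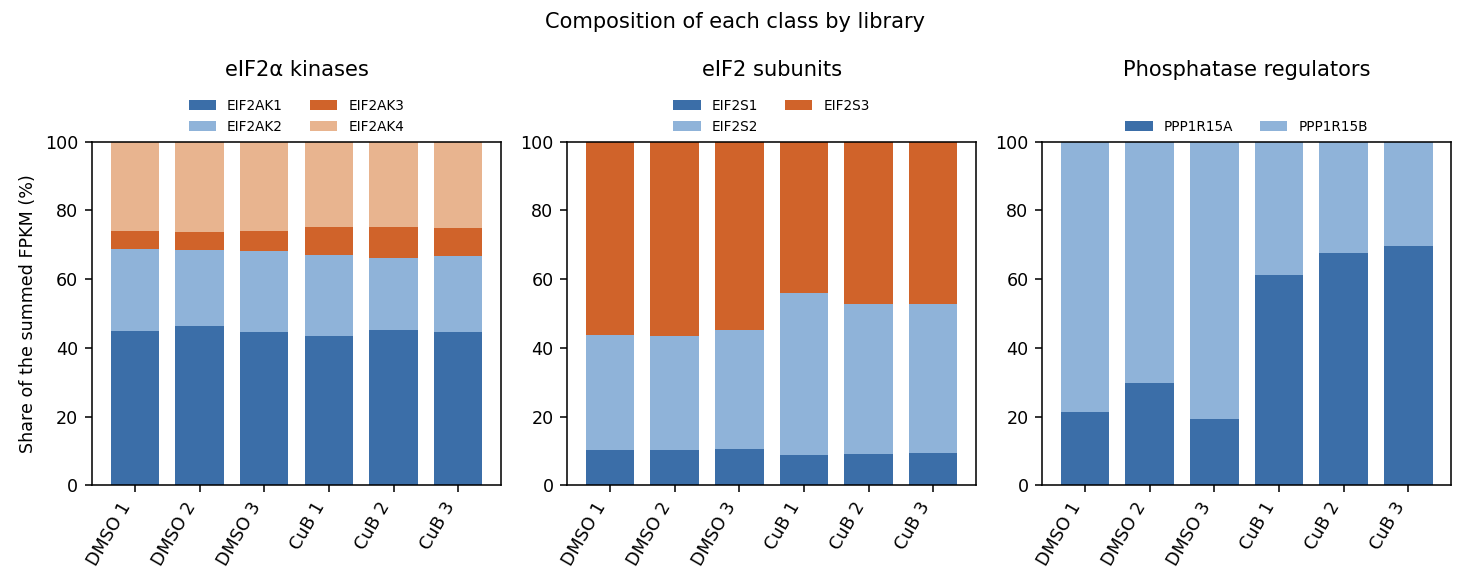
Share of the summed FPKM (%) taken by each gene of a class, with 1 stacked bar per library, for the kinases, the eIF2 subunits and the phosphatase regulators. PPP1R15A takes 19.3% to 29.8% of the regulator sum in the DMSO libraries and 61.2% to 69.6% in the CuB libraries, while the kinase bars keep EIF2AK1 as the largest part in all 6.

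Among the eIF2 subunit genes, EIF2S2 rose and the other 2 did not pass. EIF2S2 (ENSG00000125977, chromosome 20 from 34088298 to 34112332) encodes eIF2β, which contacts the GTPase-activating factor eIF5. It was at 83.7, 74.8 and 90.4 FPKM in the DMSO libraries and 181.6, 146.6 and 137.6 FPKM in the CuB libraries. The lowest CuB library was well above the highest DMSO library, and CuB replicate 1 stood above the other CuB libraries. On average it rose 1.87-fold, from 83.0 ± 7.87 FPKM to 155.3 ± 23.3 FPKM (log2 fold change 0.89, SE 0.124, limma adjusted p = 0.00183).

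EIF2S1 (ENSG00000134001, chromosome 14 from 67359997 to 67386516) encodes eIF2α, the subunit that the kinases phosphorylate. Its level was 26.0, 23.4 and 27.6 FPKM in the DMSO libraries and 33.7, 30.5 and 29.8 FPKM in the CuB libraries. The groups did not overlap but lay close, 27.6 against 29.8 FPKM at their nearest. The log2 fold change was 0.28 (95% interval 0.06 to 0.50, limma adjusted p = 0.0504). EIF2S1 passed after GC correction (0.0013), with voom on recovered fragments (0.0428) and among genes of at least 5 FPKM (0.0456). With quantile normalization its log2 fold change was 0.07 (limma adjusted p = 0.63).

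EIF2S3 (ENSG00000130741, chromosome X from 24054716 to 24077971) encodes eIF2γ, the subunit that binds GTP and the initiator tRNA. It was at 141.7, 127.2 and 143.2 FPKM in the DMSO libraries and 169.0, 158.3 and 150.0 FPKM in the CuB libraries. These ranges again were separate, with a narrow gap between DMSO replicate 3 and CuB replicate 3. The log2 fold change was 0.21 (95% interval 0.02 to 0.40, limma adjusted p = 0.0768), 0.22 after GC correction (0.00141) and 0.02 with quantile normalization (0.863).

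The rise of EIF2S2 changed the proportions of the subunit mRNAs. Per length and in each DMSO library, the order of levels was EIF2S3, EIF2S2 and then EIF2S1, without overlap between neighbours. With CuB, EIF2S2 and EIF2S3 overlapped, 137.6 to 181.6 against 150.0 to 169.0 FPKM, and EIF2S1 remained lowest. The ratio of EIF2S2 to EIF2S3 was 0.59, 0.588 and 0.631 with DMSO and 1.07, 0.926 and 0.917 with CuB, a move of 0.69 on the log2 scale. The ratio of EIF2S1 to EIF2S2 went from 0.31 ± 0.00384 to 0.203 ± 0.0162, a log2 difference of -0.61. EIF2S1 against EIF2S3 differed far less, at 0.187 ± 0.00522 and 0.197 ± 0.00351, a log2 difference of 0.08, with the groups barely apart at 0.193 in DMSO replicate 3 and CuB replicate 2. Each of these 3 ratios had an exact two-sided permutation p of 0.1, adjusted p = 0.1, the smallest possible here. A ratio within a library does not depend on library scaling.

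Copies of the subunit genes limit how sharply fragments can be assigned. EIF2S2P4, a processed pseudogene, matched EIF2S2 transcripts at 97.1% identity over 1002 aligned bases. It was itself at 10.3 ± 0.959 FPKM in the DMSO libraries and 19.3 ± 0.662 FPKM in the CuB libraries (log2 fold change 0.85, SE 0.0895, limma adjusted p = 0.000533), so the copy and its parent gene moved in the same direction. It held 145 to 294 fragments per library, against 3251 to 6835 for EIF2S2. The other 3 EIF2S2 pseudogenes in the table had 0 to 3 fragments in any library. EIF2S3B, an autosomal gene 97.4% identical to EIF2S3 over 1561 aligned bases, was at 2.48 ± 0.36 and 2.84 ± 0.495 FPKM (limma adjusted p = 0.441). How the authors treated fragments that fit more than 1 gene is not given in the sources used here, so a part of these values could belong to the partner.

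Genes around the eIF2 complex were compared next, from lists picked for this work. eIF2B, the exchange factor that phosphorylated eIF2 inhibits, had 1 of 5 subunit genes higher and 0 lower, with a median log2 fold change of 0.06. That is 20% called, against 38.6% of all tested genes, and 0 to 2 were called with a library left out. EIF2B3 rose from 11.3 ± 0.588 to 14.9 ± 0.975 FPKM (limma adjusted p = 0.0146), but did not pass after quantile normalization (0.0912), with equal fragment totals (0.0848), or in fits that left out DMSO replicate 1 (0.0686) or CuB replicate 2 (0.0705). EIF2B2 passed in the fit that left out DMSO replicate 2 (0.0374). EIF2B1 was at 38.0 ± 2.43 and 38.5 ± 2.01 FPKM, EIF2B2 at 8.96 ± 0.894 and 10.4 ± 0.504 FPKM, EIF2B4 at 7.54 ± 0.335 and 7.74 ± 0.645 FPKM, and EIF2B5 at 9.36 ± 0.512 and 9.78 ± 0.4 FPKM. EIF2S2 thus rose by more than any of the 5 exchange factor genes, a comparison of fold changes that was not itself tested.

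Of 10 partners of eIF2 in start codon selection, recycling, assembly and other routes of initiator tRNA delivery, 4 rose and 0 fell (median 0.21). That is 40% called, near the 38.6% of all tested genes, of which 22.9% were higher. With quantile normalization or equal fragment totals 3 rose and 1 fell, CDC123, an eIF2 assembly factor. EIF1, the start codon fidelity factor, rose from 91.2 ± 1.42 to 218.5 ± 23.1 FPKM (log2 fold change 1.25, limma adjusted p = 9.71e-05). EIF5, the GTPase-activating factor of eIF2, rose from 29.4 ± 4.53 to 56.9 ± 6.9 FPKM (0.93, 0.00236), and EIF1B, a close relative of EIF1, by 0.65 on the log2 scale. DENR, a subunit of a ribosome recycling factor, rose by 0.40 as deposited but did not pass under any of the 3 rescalings (0.0599 to 0.25), nor in fits lacking DMSO replicate 1 (0.0788), CuB replicate 1 (0.0633) or CuB replicate 2 (0.0866), without the filter (0.0552) or with the replicate number as a block (0.0515). EIF2A, an initiator tRNA carrier that despite its symbol is not the α subunit of eIF2, was at 47.5 ± 9.06 and 51.5 ± 7.97 FPKM.

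For the eIF3 complex, 6 of 13 subunit genes rose and 0 fell (median 0.14): EIF3A, EIF3B, EIF3C, EIF3D, EIF3I and EIF3J. The share called was 46.2%, against 38.6% of all tested genes, 22.9% higher and 15.6% lower. These calls depended on the scaling. With equal FPKM sums 2 rose and 1 fell, and with quantile normalization or equal fragment totals 1 rose and 2 fell. Left without DMSO replicate 1 or CuB replicate 2 as well, 2 were called, and 3 without DMSO replicate 3 or CuB replicate 3. EIF3J, a loosely bound subunit, had the second largest log2 fold change of the 6, 0.54.

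**Figure D3:**
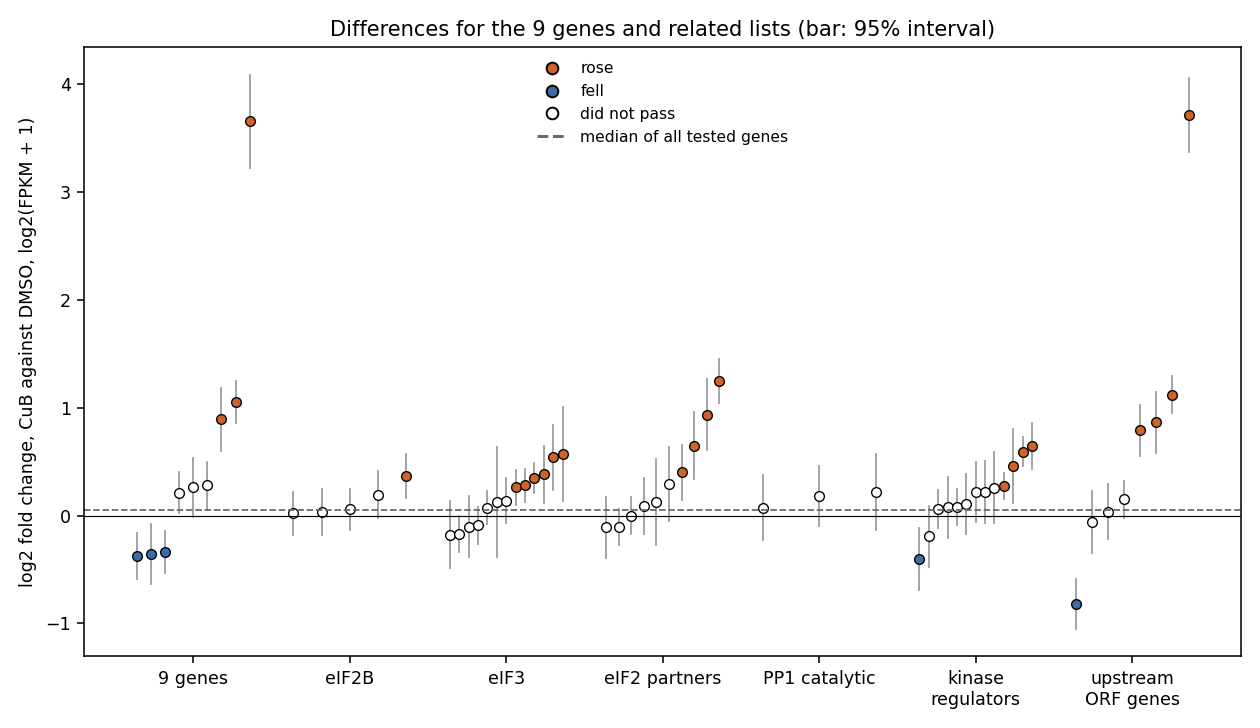
Log2 fold change of CuB against DMSO (vertical axis, on log2(FPKM + 1)) for the 9 genes and 6 related lists, 1 point per gene with its 95% interval. Orange points rose, blue points fell and white points did not pass, and the dashed line is at 0.05, the median over the tested genes; PPP1R15A at 3.65 and DDIT3 at 3.71 stand above all other points.

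Of the 4 kinase genes 3 fell, where 15.6% of all tested genes were called lower and 38.6% in either direction. The remaining kinase gene, EIF2AK3, had a higher mean with CuB and did not pass. Per length, EIF2AK1 was the most abundant kinase mRNA in each library and EIF2AK3 the least. EIF2AK4 was above EIF2AK2 in each library, although their ranges overlapped within both groups. EIF2AK1 (ENSG00000086232, chromosome 7 from 6022244 to 6059230) encodes HRI, the kinase that responds to heme shortage and to mitochondrial stress. Its level was 30.6, 26.8 and 30.6 FPKM in the DMSO libraries and 23.6, 22.9 and 22.3 FPKM in the CuB libraries. All CuB libraries lay below the lowest DMSO library, replicate 2. The mean fell 1.28-fold, from 29.3 ± 2.2 to 22.9 ± 0.642 FPKM (log2 fold change -0.34, SE 0.0831, limma adjusted p = 0.0175).

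EIF2AK4 (ENSG00000128829, chromosome 15 from 39934146 to 40035591) encodes GCN2, the sensor of uncharged tRNA and stalled ribosomes. It was at 17.8, 15.2 and 17.8 FPKM in the DMSO libraries and 13.4, 12.6 and 12.5 FPKM in the CuB libraries. Here as well DMSO replicate 2 was the lowest of its group and still above every CuB library. The mean fell 1.32-fold, from 16.9 ± 1.49 to 12.8 ± 0.485 FPKM (log2 fold change -0.37, SE 0.0901, limma adjusted p = 0.0171).

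EIF2AK2 (ENSG00000055332, chromosome 2 from 37099210 to 37157065) encodes PKR, the interferon-inducible sensor of double-stranded RNA. Its level was 16.3, 12.8 and 16.0 FPKM in the DMSO libraries and 12.6, 10.7 and 11.1 FPKM in the CuB libraries. The groups all but met, at 12.8 FPKM in DMSO replicate 2 and 12.6 FPKM in CuB replicate 1. The mean fell 1.31-fold (log2 fold change -0.36, SE 0.118, limma adjusted p = 0.0496). The call was lost in 9 of 19 other settings, with an adjusted p as high as 0.165, and held under the 3 rescalings and the GC correction.

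EIF2AK3 (ENSG00000172071, chromosome 2 from 88556741 to 88627576) encodes PERK, the kinase of the endoplasmic reticulum membrane. It was at 3.56, 2.91 and 4.08 FPKM in the DMSO libraries and 4.52, 4.5 and 4.12 FPKM in the CuB libraries. The groups almost touched at 4.08 and 4.12 FPKM. The log2 fold change was 0.26 (95% interval -0.01 to 0.53, limma adjusted p = 0.119), on 259 to 364 fragments per library. It passed only with the GC correction, without (0.0149) and with (0.0383) the replicate number as a block.

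The calls of EIF2AK1, EIF2AK2 and EIF2AK4 depended on which libraries were in the fit. Without DMSO replicate 1, DMSO replicate 3, CuB replicate 2 or CuB replicate 3 none of these 3 genes passed, so that 3 of the 9 genes were called in each of those fits in place of 6. Calls over all 13273 tested genes fell as well in those fits, from 5118 to between 3262 and 4017. The loss of calls was thus not particular to these kinase genes. The adjusted p was then 0.0626 to 0.0804 for EIF2AK1, 0.0595 to 0.0754 for EIF2AK4 and 0.126 to 0.165 for EIF2AK2, and the log2 fold changes stayed between -0.36 and -0.30. Without DMSO replicate 2 all 3 passed (EIF2AK1 0.00508, EIF2AK2 0.0093, EIF2AK4 0.00471), and so they did without CuB replicate 1 (0.0356, 0.0488 and 0.0321). Rescaling made the falls larger, to -0.54 for EIF2AK1, -0.51 for EIF2AK2 and -0.53 for EIF2AK4.

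The sum of the 4 kinase mRNAs was 68.3, 57.7 and 68.5 FPKM in the DMSO libraries and 54.2, 50.7 and 50.0 FPKM in the CuB libraries. Within that sum EIF2AK3 took 5.22%, 5.05% and 5.95% with DMSO and 8.34%, 8.88% and 8.24% with CuB. The shares of EIF2AK1 were 45.3 ± 0.986% and 44.5 ± 0.816%, those of EIF2AK2 23.1 ± 0.899% and 22.2 ± 1.15%, and those of EIF2AK4 26.1 ± 0.207% and 24.9 ± 0.123%. These sums and shares are descriptions without a test.

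Among 13 regulators of the kinases 4 rose and 1 fell (median 0.21). The share called, 38.5%, was close to the 38.6% of all tested genes, and 3 to 7 were called with a library left out. HSPA5, the chaperone BiP that holds PERK inactive, rose from 187.4 ± 2.19 to 283.1 ± 4.16 FPKM (limma adjusted p = 0.00036). HSP90AA1 and HSP90AB1, chaperones needed for HRI folding, rose by 0.64 and 0.28 on the log2 scale, the latter not passing with quantile normalization, with equal fragment totals or without the filter. TARBP2, an inhibitor of PKR, rose by 0.46 but passed under none of the 3 rescalings, nor when DMSO replicate 1 or 3 or CuB replicate 2 or 3 was left out (0.125 to 0.133) or low genes were kept in the test (0.104). OMA1, the mitochondrial protease that starts the signal to HRI through DELE1, fell from 7.09 ± 0.787 to 5.13 ± 0.749 FPKM (limma adjusted p = 0.0385), and DELE1 was at 14.0 ± 0.276 and 14.6 ± 0.589 FPKM. OMA1 lost its call when any 1 of the same 4 libraries was left out (0.0998 to 0.138), and when low genes were kept in the test. GCN1, the activator of GCN2, was at 39.8 ± 3.74 and 42.1 ± 5.42 FPKM.

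Of 8 genes with upstream open reading frames whose translation is known to persist when eIF2α is phosphorylated, 4 rose and 1 fell (median 0.47), 62.5% called against 38.6% of all tested genes. ATF5, a relative of ATF4, rose from 4.62 ± 0.674 to 9.21 ± 0.944 FPKM, and EPRS, a tRNA synthetase, from 77.7 ± 7.53 to 134.9 ± 10.8 FPKM, alongside ATF4 and DDIT3. BACE1, the β-secretase, fell from 9.25 ± 0.858 to 4.81 ± 0.359 FPKM. IBTK, SLC35A4 and QRICH1 did not pass, with log2 fold changes of -0.06, 0.04 and 0.15. The list was picked with the rises of ATF4 and DDIT3 known.

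DMSO replicate 2 and CuB replicate 1, opposite in sign of GC correlation to their groups' other libraries, also stood apart in these genes. DMSO replicate 2 was the lowest DMSO library in 8 of the 9 genes and the highest in PPP1R15A. CuB replicate 1 was the highest CuB library in 8 of the 9 and the lowest in PPP1R15A. CuB replicate 3, whose GC correlation of 0.51 was as large as that of CuB replicate 1, was the lowest in 7 of the 9. How often this order holds over all tested genes was not counted. The longest transcript of PPP1R15A is 58.8% GC and those of the other 8 genes are 38.7% to 47.3%. After the GC correction the coefficient of variation among the DMSO libraries went from 26.1% to 11.6% for PPP1R15A, from 13.1% to 3.31% for EIF2AK2 and from 6.46% to 1.61% for EIF2S3. It was still 9.07% for EIF2AK3 among the DMSO libraries, and went only from 15.0% to 11.5% for EIF2S2 among the CuB libraries. All 9 genes then passed, 6 higher and 3 lower, where 57.7% of all tested genes were called with this correction, with log2 fold changes of 3.61 for PPP1R15A, 1.06 for PPP1R15B, 0.90 for EIF2S2 and -0.38 to -0.34 for the 3 kinase genes that fell.

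**Figure D4:**
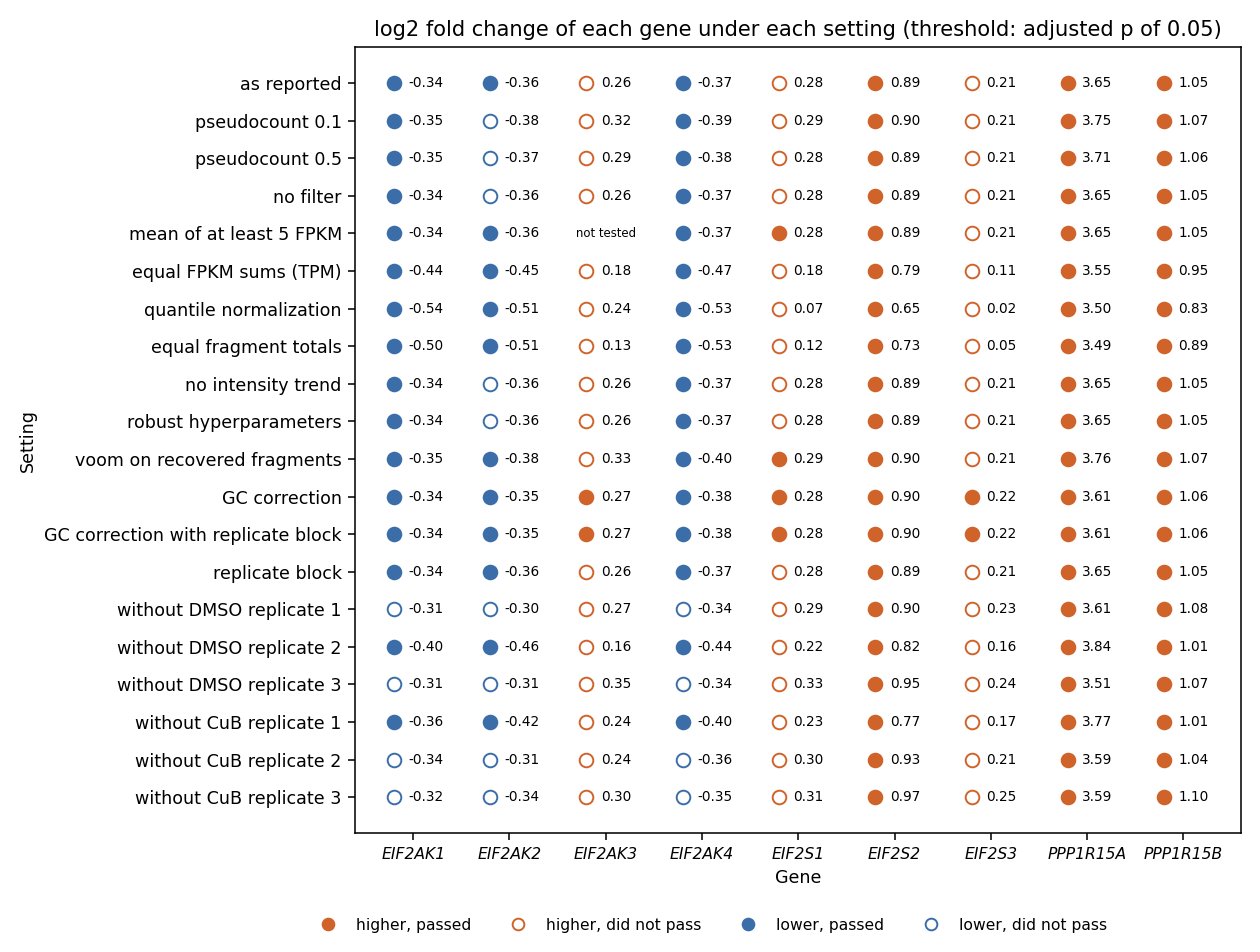
Log2 fold change (number) of each gene (horizontal axis) as reported and under each of 19 other settings (vertical axis), filled where the adjusted p was under 0.05. Orange is higher and blue lower with CuB; PPP1R15A, PPP1R15B and EIF2S2 are filled in each row, EIF2AK1 and EIF2AK4 are open in 4 rows and EIF2AK2 in 9.

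Some of the genes share exon positions with a gene on the opposite strand in GENCODE 29, and the TruSeq kit named in the protocol keeps no strand information. EIF2AK1 shares 532 exon bases, 9.59% of its own, with AIMP2 (mean 20.7 FPKM). EIF2S1 shares 269 bases, 4.76%, with ATP6V1D (10.9 FPKM), and EIF2AK2 shares 401 bases, 3.73%, with AC007899.1 (0.0724 FPKM) and 35 bases with GPATCH11 (11.9 FPKM). Opposite-strand genes at EIF2AK3 were below 1 FPKM. EIF2AK4, EIF2S2, EIF2S3, PPP1R15A and PPP1R15B share no exon base with another annotated gene.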

How the data were processed

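The authors deposited FPKM for 58735 genes, with gene lengths, and the build is GRCh38 (submitters' processing notes). The sources used here name no aligner, counting tool or scaling. Columns were matched to samples by library name, with 0 per-sample columns unused. Gene identifiers and positions matched GENCODE 29 for all 58735 genes. Fragments were recovered from the FPKM steps and gene lengths, with 100% of values above 0 whole within 0.01 of a fragment. Depth was 14845976 to 16137093 fragments per library. Replicates differed by more than sampling noise (chi-square per degree of freedom 2.8 to 24.3), and each library was counted as a sample. The values of 8.76 to 24.3 came from pairs with DMSO replicate 2 or CuB replicate 1, which stand apart in GC content. Such scatter could be technical and does not show that the replicates were separate cultures. Differences of log2(FPKM + 1) were tested with limma 3.58.1 in R 4.3.3 where a gene averaged 1 FPKM or more. The fit had an intensity trend, group as the only term and 4 residual degrees of freedom. P-values were adjusted by Benjamini-Hochberg over 13273 genes at a threshold of 0.05. The fit had been checked on simulated counts without a GC trend and with far fewer changed genes than here. That check does not cover the GC differences between these libraries. Ratios between genes had exact permutation tests over libraries. Alternatives were pseudocounts of 0.1 and 0.5, other filters and scalings, voom on recovered fragments, a lowess GC correction (span 0.3; GC of the longest transcript, known for 99.94% of tested genes), a replicate block and each library left out. Copies were aligned with blastn 2.17.0, and plots used matplotlib 3.10.9. The 9 genes, the lists and the naming rule were chosen with earlier results of these data known. Named were the 9 genes, every eIF2B and PP1 catalytic gene, list genes past the threshold, sequence copies of the 9 genes and the 5 genes most like PPP1R15A. Any further gene named was picked with its values in view. Marker genes only checked the cell line.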

Additional observations from a re-analysis of the deposited data

How the results depend on the processing

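Each of the 170 values of the 9 genes under the 19 other settings kept its sign; 145 stayed on the same side of the threshold, 17 lost the call and 8 gained it. PPP1R15A, PPP1R15B and EIF2S2 passed in all 19, with log2 fold changes of 3.49 to 3.84, 0.83 to 1.10 and 0.65 to 0.97. The number of the 9 genes called was 3 to 6 with a library left out, 9 with the GC correction, with or without the block, and 5 to 7 in the other settings run on all libraries. Over all tested genes, 3250 were called among genes of at least 5 FPKM, where fewer genes were tested, and 3262 to 5755 with a library left out, the lowest without CuB replicate 2. Of the 52 genes of the related lists 21 were called as reported (40.4%, against 38.6% of all tested genes), 33 with the GC correction (63.5%, against 57.7%) and 13 to 24 with a library left out (13 without DMSO replicate 1 or CuB replicate 2); the cause was not tested. Deviations of same-numbered libraries correlated at 0.27, 0.12 and -0.36 over genes, and at 0.08, 0.04 and -0.09 after the GC correction. Because the libraries also differed along GC content, these values cannot decide whether replicate numbers pair the samples. With the replicate block 4443 genes and the same number of the 9 genes, 6, were called, and 18 of the 52 list genes. The log2 ratio of PPP1R15A to PPP1R15B moved by 2.53 to 2.94 with a library left out and that of EIF2S2 to EIF2S3 by 0.61 to 0.73. For EIF2S1 to EIF2S3 the exact p was 0.1 or 0.2 with a library left out and 0.2 with a pseudocount of 1. Depth limits EIF2AK3 most, at 259 to 364 fragments per library.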
